A study of Mus musculus with 194 samples.

Results

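The 4 Dlx genes described here, Dlx1, Dlx2, Dlx5 and Dlx6, are homeobox transcription factor genes that lie in 2 convergent pairs of the mouse genome. They were followed through a calling card study of the mouse brain, in which a transposase leaves a transposon at TTAA sites and each insertion is a record of where the transposase was. The members were chosen by their insertion counts in Syn1Cre mice against GFAPCre mice and against Cre-negative mice (Syn1CreNeg), so those 2 contrasts are given as values with no test. They are 4 of the 21627 protein-coding loci counted. Each locus is the gene body in the mm10 (GRCm38) build with 50 kb on each side, and each pair region is the span of both genes with 50 kb on each side. Over the 46 animals the Dlx1-Dlx2 region held 6669 and the Dlx5-Dlx6 region 3593 of 21125080 insertions.

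The animals fall into 11 groups, all given calling card viruses at postnatal day 0 to 1. C57bl6J wild-type mice (2 animals) received viruses that need no Cre. Syn1Cre mice (6), in which a Synapsin promoter drives Cre in neurons, and their Cre-negative group Syn1CreNeg (6) received Cre-dependent viruses, as did GFAPCre mice (6), in which the Cre transgene is meant for astrocytes, and GFAPCreNeg (6). Frontflip_GFAPCre (3) and Frontflip_GFAPCreNeg (3) carried a further Cre-dependent construct. The Syn1Cre SP1 groups, collected at day 10 (SP1 P10, 3 animals) or day 28 (SP1 P28, 4 animals), carried an SP1 calling card construct. SP1 is a transcription factor that binds GC-rich boxes at promoters. Rbp4Cre_TRAP (4) is RNA pulled down with ribosomes from whole forebrain of Rbp4-Cre mice, a line used for layer 5 projection neurons. BrokenHeart (3) was read from DNA, whereas the other brain groups were read from RNA of the transposon, mostly in cortex divided into 10 pieces per animal. N2a, a mouse neuroblastoma line, had 1 table that combines 3 experiments and so has no spread. The ages of the groups other than SP1 are not given in the sources used here.

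Dlx genes are best known in the forebrain for the development of GABAergic neurons. Progenitors of the ganglionic eminences switch on Dlx1 and Dlx2, Dlx5 and Dlx6 follow under their control, and the resulting interneurons migrate into the cortex and keep part of this programme. Enhancers between the 2 genes of each pair are shared by both genes, and noncoding RNAs (Dlx1as, Dlx6os1) are transcribed across the pairs. Excitatory cortical neurons and astrocytes of the cortex arise mainly from other progenitors.

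Dlx1 (gene 13390) is annotated at chr2:71528113-71533981 and Dlx2 (gene 13392) at chr2:71543408-71546754. The antisense RNA Dlx1as covers chr2:71530638-71537891, and the coding gene Metap1d, a mitochondrial methionine aminopeptidase gene, ends before Dlx1, at 71525194. Dlx6 (gene 13396) is annotated at chr6:6863334-6867970 and Dlx5 (gene 13395) at chr6:6877801-6882068, with the long noncoding RNA Dlx6os1 at chr6:6820543-6871627. Loci of the same pair share most of their insertions, so Dlx1 and Dlx2, or Dlx5 and Dlx6, are not independent measurements.

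The promoter windows of Dlx1 and Dlx2 are shown because 2 groups carried SP1, whose motif can be looked for, and because insertions need a TTAA. They come from RefSeq (GRCm38.p6), run from 250 bases before to 50 bases after a start site, and have the letters GGGCGG (on either strand, thus also CCGCCC) and TTAA in capitals. The Dlx1 window is chr2:71529195-71529494 on the plus strand and the Dlx2 window chr2:71546705-71547004 on the minus strand.
Dlx1: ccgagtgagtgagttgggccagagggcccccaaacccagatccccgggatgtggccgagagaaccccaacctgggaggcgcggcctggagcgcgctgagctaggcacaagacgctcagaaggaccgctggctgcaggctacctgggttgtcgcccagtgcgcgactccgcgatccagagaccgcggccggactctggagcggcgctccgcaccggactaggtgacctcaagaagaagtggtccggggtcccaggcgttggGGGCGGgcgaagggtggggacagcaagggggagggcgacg
Dlx2: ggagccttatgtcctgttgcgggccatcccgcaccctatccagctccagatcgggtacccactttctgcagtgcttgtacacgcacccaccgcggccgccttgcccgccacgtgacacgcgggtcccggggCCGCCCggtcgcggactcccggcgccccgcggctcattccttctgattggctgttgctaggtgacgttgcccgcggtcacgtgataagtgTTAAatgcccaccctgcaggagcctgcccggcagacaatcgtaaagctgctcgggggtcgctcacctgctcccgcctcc
Each window held 1 GC box, at 10 bases after the start site in Dlx1 and 119 bases before it in Dlx2. The letters GGGCGG occurred on either strand in 35.7% of the 32851 promoter windows of the same length. The Dlx1 window held no TTAA and the Dlx2 window 1, at 29 bases before the start site, where no table had an insertion. Of all promoter windows 52.4% held a TTAA. A match is a description of the letters, not a site of binding. Matches for Dlx5 and Dlx6 were not analysed here.

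Depth set the precision of each level. The tables held 1545951 and 2186743 insertions in C57bl6J, 443158 to 1364948 in Syn1Cre and 600443 to 1505413 in GFAPCre. The tables of SP1 P28 held 108965 to 577609, those of SP1 P10 held 86842 to 95331, and those of Rbp4Cre_TRAP held 24408 to 57014. Frontflip_GFAPCreNeg held 2341 to 9601 insertions, too few for a level, with 1, 0 and 0 insertions at each Dlx pair. Levels are given as IPM, insertions per 1000000 insertions of the animal's own table, and intervals cover counting error only. A count of 0 in Frontflip_GFAPCreNeg animals 2 and 3 allows up to 1282 and 530 IPM. In these bulk tissues fewer cells of a type and fewer insertions per cell cannot be told apart.

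Insertions at Dlx1-Dlx2 were densest in the SP1 P10, SP1 P28, Syn1Cre and C57bl6J groups. The 3 SP1 P10 animals had 679, 1025 and 892 IPM (865 ± 174, SD). The 4 SP1 P28 animals had 612, 633, 607 and 481 (584 ± 69.1), and the 6 Syn1Cre animals lay between 471 and 625.1 with a median of 566 (553 ± 57.9). The C57bl6J animals had 417 and 391 (404 ± 18.2, n = 2). These 4 groups stood above every animal of the remaining groups. GFAPCre lay between 116 and 170 with a median of 129 (136 ± 19.05, n = 6), GFAPCreNeg between 117 and 140 with a median of 119 (124 ± 9.75, n = 6), and Syn1CreNeg between 83.7 and 172 with a median of 115 (120 ± 28.9, n = 6). BrokenHeart had 172, 81.5 and 94.1 (116 ± 48.8) from 10, 8 and 4 insertions, and Frontflip_GFAPCre 170, 56.0 and 85.7 (104 ± 59.3). Rbp4Cre_TRAP had 123, 159, 99.8 and 164 (136 ± 30.5) from 7, 8, 4 and 4 insertions. N2a had 90.5 (73 insertions, exact Poisson interval 70.9 to 114).

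Dlx5-Dlx6 followed the same broad division at lower levels. SP1 P10 had 415, 490 and 577 IPM (494 ± 81.3), and SP1 P28 had 362, 459, 456 and 296 (393 ± 78.8). Syn1Cre lay between 234 and 286 with a median of 255 (261 ± 20.1, n = 6), and C57bl6J had 256 and 251 (253 ± 3.15, n = 2). BrokenHeart followed with 68.6, 132 and 141 (114 ± 39.6). GFAPCreNeg had 83.4 ± 25.1, Syn1CreNeg 70.9 ± 18.1 and GFAPCre 63.2 ± 19.6 (n = 6 each), with ranges that overlapped. Frontflip_GFAPCre had 43.8, 31.1 and 0, where the animal at 0 could hold up to 18.4 IPM. Rbp4Cre_TRAP had 2 insertions in all, 1 in each of animals 3 and 4, and N2a had 4.

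**Figure D1:**
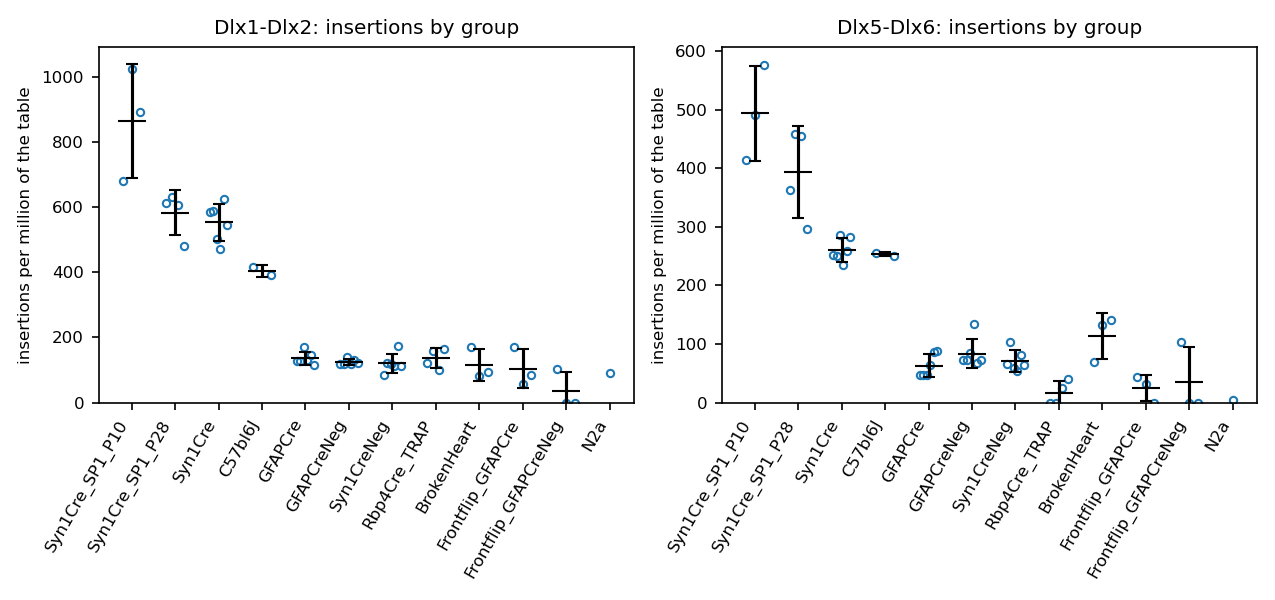
Insertions per 1000000 insertions of the table (IPM) at the Dlx1-Dlx2 region and the Dlx5-Dlx6 region, 1 point per animal with the group mean and SD. SP1 P10, SP1 P28, Syn1Cre and C57bl6J lie above all other groups at Dlx1-Dlx2 (means 404 to 865), and the N2a point is 1 pooled table.

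In the order of means at Dlx1-Dlx2, 3 neighbouring groups were separated without overlap of their animals. SP1 P10 lay above SP1 P28, Syn1Cre above C57bl6J, and C57bl6J above Rbp4Cre_TRAP. Every other pair of neighbours in that order overlapped. At Dlx5-Dlx6 SP1 P28 lay above Syn1Cre and C57bl6J above BrokenHeart, and every other pair of neighbours overlapped. These are levels within each table and are not scaled for composition, which matters for the SP1 groups as described with their tests.

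The chosen contrasts themselves had these sizes. The Syn1Cre mean was 4.07 times the GFAPCre mean at Dlx1-Dlx2 and 4.13 times at Dlx5-Dlx6. Against Syn1CreNeg it was 4.60 and 3.68 times. The 6 Syn1Cre animals lay above all 6 animals of either group at both pairs, a separation that the choice of members used. The summed level of the 7 interneuron marker loci moved with it, at 273 to 474 IPM in Syn1Cre, 133 to 242 in GFAPCre and 126 to 236 in Syn1CreNeg. The 9 astrocyte marker loci summed to 1154 to 3638, 1595 to 3161 and 3972 to 5080 in the same groups, and the part of either in the Dlx levels was not tested.

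The balance between the pairs differed between tables. In Syn1Cre, Dlx1-Dlx2 held 2.07 insertions for each at Dlx5-Dlx6 (pooled; 1.76 to 2.41 over the 6 animals). The ratio was 1.59 in C57bl6J, 1.55 in SP1 P28, 1.75 in SP1 P10 and 2.23 in GFAPCre. BrokenHeart had nearly equal counts (0.957). N2a, with 73 insertions against 4, and Rbp4Cre_TRAP, with 23 against 2, had some insertions in the Dlx1-Dlx2 region, flanks included, and few at Dlx5-Dlx6.

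Insertions were spread unevenly within each region, and the uneven part lay on 1 side. In Syn1Cre, 2136 of 3004 Dlx1-Dlx2 insertions (71.1%) lay in the 50 kb before Dlx1, which Metap1d covers in most of its length, at 7.86 IPM per kb. The 50 kb after Dlx2 held 44 (0.162 IPM per kb). The Dlx1 body held 301 (9.30 IPM per kb), the Dlx2 body 59 (3.27), and the stretch between the genes 464 (9.20). Sites used in any table were also scarcer after Dlx2, at 1.38 per kb against 4.78 per kb before Dlx1. A site is counted only where an insertion was seen, so this number follows the insertions and does not measure the TTAA sites available. The densest windows of 5 kb in Syn1Cre lay 15 to 10 kb and 10 to 5 kb before Dlx1 (134 ± 19.9 and 108 ± 19.6 IPM, n = 6), followed by the window from 5 to 10 kb after the start of Dlx1 (88.9 ± 11.3).

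At Dlx5-Dlx6 the stretch between the genes had a higher mean density in Syn1Cre than either gene body or either flank. It held 543 of 1452 Syn1Cre insertions (37.4%), at 9.92 IPM per kb. The Dlx6 body had 3.35 and the 50 kb before Dlx6, which Dlx6os1 covers in most of its length, had 2.69. The Dlx5 body held 11 insertions (0.443 IPM per kb), and the 50 kb after Dlx5 held 69 (0.229). Sites used in any table, with the same limit, numbered 5.09 per kb between the genes, 3.80 before Dlx6 and 1.74 after Dlx5. The densest window of 5 kb in Syn1Cre nevertheless lay in the flank, 10 to 5 kb before Dlx6 (56.3 ± 7.64 IPM, n = 6). The windows from 5 to 10 kb and 10 to 15 kb after the start of Dlx6 followed (51.3 ± 7.16 and 46.3 ± 7.89).

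**Figure D2:**
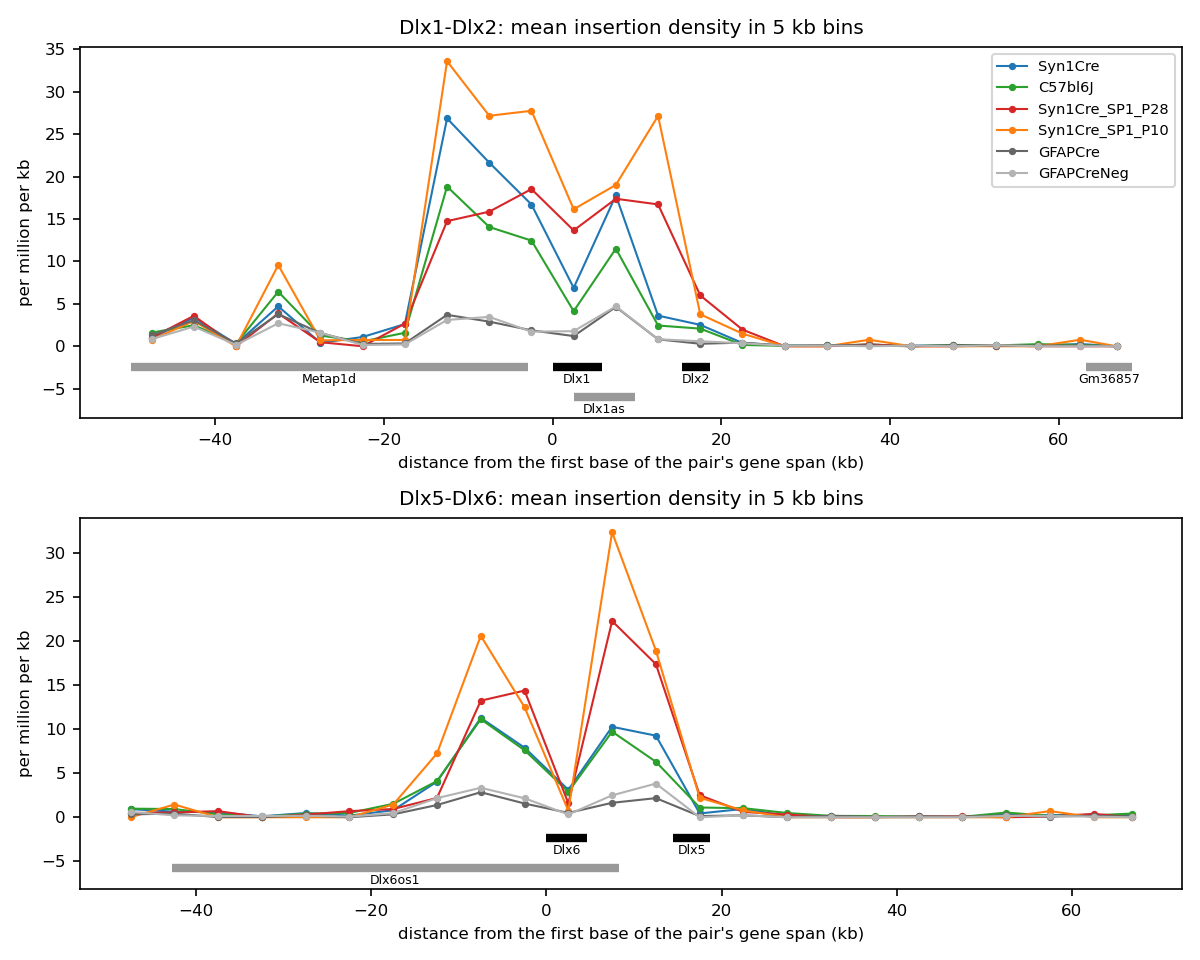
Insertion density (IPM per kb) in windows of 5 kb, plotted by distance in kb from the start of the pair's first gene (Dlx1 above, Dlx6 below), as means of 6 groups with the annotated genes as bars. Syn1Cre peaks 15 to 10 kb before Dlx1 (26.8 IPM per kb), and SP1 P10 in the same window (33.6). At Dlx5-Dlx6, SP1 P10 peaks 5 to 10 kb after the start of Dlx6, between the genes (32.3).

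Single positions recurred across animals. The most used Dlx1-Dlx2 site in Syn1Cre, chr2:71515026-71515029 in Metap1d, had 91 insertions from all 6 animals (16.3 IPM), against 17 in GFAPCre (3.27 IPM). The second, chr2:71536846-71536849 in Dlx1as, had 87 in Syn1Cre (15.6 IPM), 22 in GFAPCre (4.23) and 16 in GFAPCreNeg (6.21). The third, chr2:71518530-71518533, also in Metap1d, had 79. At Dlx5-Dlx6 the site chr6:6873727-6873730 between the genes had 67 in Syn1Cre (12.02 IPM), 18 in GFAPCre (3.46) and 11 in SP1 P10 (40.4). The next sites, chr6:6856740-6856743 and chr6:6857249-6857252, lie in Dlx6os1 and had 50 and 39. These 6 sites were ranked on Syn1Cre counts, so their height in Syn1Cre is no finding.

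No single site carried either region. The 3 most used sites held 8.56% of the Syn1Cre insertions at Dlx1-Dlx2 and 10.7% at Dlx5-Dlx6. Syn1Cre used 271 distinct sites at Dlx1-Dlx2, of which 212 were hit in at least 2 animals and 65 in all 6. Of the Dlx5-Dlx6 sites, 234 were used, 144 in at least 2 animals and 26 in all 6. C57bl6J and Syn1Cre shared 215 sites at Dlx1-Dlx2, which are 79.3% of the Syn1Cre sites and 84.0% of the C57bl6J sites. GFAPCre shared 163, which are 60.1% of the Syn1Cre sites and 82.3% of its own, in spite of its lower level.

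The orientation of the transposon was not even at Dlx1-Dlx2. In Syn1Cre 43.6% of insertions were on the plus strand (exact interval 41.9 to 45.4), in C57bl6J 45.0% (42.4 to 47.5) and in SP1 P28 38.2% (34.3 to 42.3). In GFAPCre the share was 51.7% (47.9 to 55.4). At Dlx5-Dlx6 it was 50.4% in Syn1Cre. The differences between groups were not tested, and the intervals treat insertions as independent, which repeated sites make too narrow.

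The SP1 groups were compared with Syn1Cre to see whether SP1 moved insertions to or from the Dlx loci. Tests on all loci used edgeR's quasi-likelihood test with Benjamini-Hochberg adjustment over all loci tested, here and below, and called an adjusted p below 0.05. Comparisons with Syn1Cre or GFAPCre as an arm share those animals with the contrasts that chose the genes. No library pool holds both SP1 and Syn1Cre animals, so pool and construct cannot be told apart in these values. In SP1 P28 against Syn1Cre, Dlx1 and Dlx2 were called lower, at -0.37 (SE 0.143, adjusted p 0.0322) and -0.38 (SE 0.148, adjusted p 0.0361) on the log2 scale, under TMM scaling, but the sign turned to 0.07 and 0.06 when each table was scaled by its total insertions, and to 0.21 and 0.24 when each position was counted once per table. Dlx5 was 0.13 (SE 0.150, adjusted p 0.478) under TMM and 0.57 (adjusted p 0.00192) under total insertions, and Dlx6 was 0.12 (SE 0.148, adjusted p 0.530). Thus 2 of 4 members were called where 54.4% of the 17070 loci tested were called, so the members' count was near that of all loci. The scaling matters because the median of all loci moved from -0.06 under TMM to 0.37 under total insertions, and the split of calls from 4592 higher and 4694 lower to 7383 and 1720. Without SP1 P28 animal 4, Dlx1 was -0.26 with adjusted p 0.139. Dlx2 lost its call without SP1 P28 animal 2 or 4 or Syn1Cre animal 5 or 6 (adjusted p 0.0519 to 0.168). A further fit used Syn1Cre animals 1 to 3 alone, since the labels give animals 4 to 6 another library layout. There Dlx1 was -0.32 with adjusted p 0.0690 and Dlx2 -0.31 with adjusted p 0.0864.

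In SP1 P10 against Syn1Cre, Dlx5 was called higher, at 0.47 (SE 0.161, adjusted p 0.0226), and Dlx6 at 0.44 (SE 0.159, adjusted p 0.0295). Dlx1 was 0.15 (SE 0.162, adjusted p 0.466) and Dlx2 had adjusted p 0.420. With total insertions Dlx5 was 0.96 and Dlx1 0.65 (adjusted p 0.000685), while the median of all loci moved from -0.18 to 0.31. The 2 called members compare with 43% of the 17470 loci tested. The call at Dlx5 was lost without SP1 P10 animal 2 (adjusted p 0.0631) or animal 3 (0.34, adjusted p 0.182). The 3 SP1 P10 tables are shallow, at 86842 to 95331 insertions each, and at Dlx5-Dlx6 they hold 36, 44 and 55 insertions. In unscaled IPM, the interneuron markers summed to 725 to 871 in SP1 P10, 404 to 522 in SP1 P28 and 273 to 474 in Syn1Cre. Other lists moved too. In the same order, oligodendrocyte lineage markers summed to 714 to 787, 642 to 850 and 468 to 589. Microglia markers summed to 104 to 189, 146 to 275 and 97.4 to 111. Excitatory markers had 2517 to 2856, 2065 to 2365 and 2753 to 3402, and astrocyte markers 1615 to 2339, 1920 to 4088 and 1154 to 3638. The part of any list was not tested.

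Between the ages, SP1 P28 was lower than SP1 P10 by point estimate at all 4 members, and none was called where 7.03% of 8273 loci were. Dlx1 was -0.47 (SE 0.183, adjusted p 0.112), Dlx2 -0.50 (adjusted p 0.102), Dlx5 -0.29 (SE 0.186, adjusted p 0.356) and Dlx6 -0.28 (adjusted p 0.378). The labels put SP1 P28 animals 2, 3 and 4 partly in pools with SP1 P10 animals, and SP1 P28 animal 1 in none.

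Both SP1 groups also differed from Syn1Cre in the placement of insertions within the regions. The core of each pair was its span with 5 kb on each side, which covers 24.1% of the Dlx1-Dlx2 region and 24.2% of the Dlx5-Dlx6 region. This share does not depend on how tables are scaled. At Dlx1-Dlx2 the core held 61.3%, 62.3%, 70.0% and 60.1% of each SP1 P28 animal's insertions (63.4 ± 4.49) and 55.9%, 53.3% and 56.5% in SP1 P10 (55.2 ± 1.72). In the 6 Syn1Cre animals it held 40.5% to 45.6% (43.3 ± 1.86). All SP1 animals of both ages lay above all Syn1Cre animals. The differences were 20.1 and 11.96 percentage points, with exact two-sided permutation p of 0.00476 (adjusted p 0.0238) and 0.0119 (adjusted p 0.0298), each the smallest that the numbers of animals allow. With each position counted once, the SP1 P10 difference was 8.47 points and its call was lost (adjusted p 0.0595 by the exact permutation test). Syn1CreNeg, without SP1, had 28.3% to 57.1% (42.9 ± 10.6, n = 6), from 9 to 72 insertions per animal, so its highest animal lay above all SP1 P10 animals. Core shares were not measured at loci other than the Dlx pairs, so whether the shift is particular to them was not tested.

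At Dlx5-Dlx6 the core held 67.9%, 86.0%, 74.7% and 64.3% in SP1 P28 (73.2 ± 9.54) and 69.4%, 70.5% and 65.5% in SP1 P10 (68.5 ± 2.64). Syn1Cre lay between 56.6% and 62.7% (60.8 ± 2.54, n = 6), again with no overlap. The differences of 12.5 and 7.69 points had exact permutation p of 0.00476 and 0.0119 (adjusted p 0.0238 and 0.0298 over the 10 core comparisons). With any 1 of the 3 SP1 P10 animals left out, the smallest adjusted p that the test could give was 0.0779 at both pairs, so those calls need all 3 animals. With each position counted once, both calls at Dlx5-Dlx6 were lost, at 8.68 points for SP1 P28 (adjusted p 0.144, exact permutation) and 5.56 for SP1 P10 (adjusted p 0.170). With at least 2 reads per insertion the SP1 P10 call there was also lost (7.06 points, adjusted p 0.0952). The SP1 P28 share exceeded that of SP1 P10 by 8.19 points at Dlx1-Dlx2 (exact permutation p = 0.0286, the smallest possible; adjusted p 0.0571) and by 4.76 points at Dlx5-Dlx6 (exact permutation p = 0.543), neither called. Animals without SP1 also reached the SP1 range at Dlx5-Dlx6. All 3 BrokenHeart animals did, at 100%, 69.2% and 66.7%, from 4, 13 and 6 insertions. Frontflip_GFAPCre had 55.6% and 80.0%, from 9 and 5 insertions. Single animals of 2 other groups did too. Syn1CreNeg had 28.6% to 70.0% (52.1 ± 16.8, n = 6) and GFAPCreNeg 40.0% to 66.7% (52.6 ± 9.10, n = 6).

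**Figure D3:**
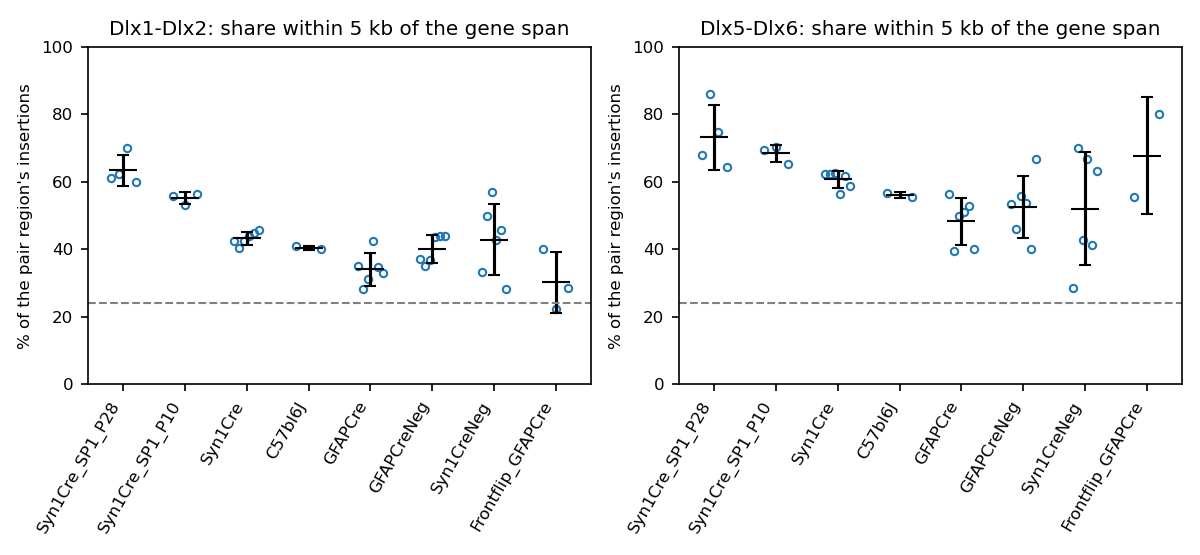
Percentage of each animal's insertions in a pair region that lie in the core, the pair's span with 5 kb on each side, 1 point per animal with the group mean and SD. The dashed line is the core's share of the region's length (24.1% and 24.2%), and all SP1 animals lie above all Syn1Cre animals at both pairs.

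The SP1 groups had higher levels than Syn1Cre in the stretch between the genes of each pair. Between Dlx1 and Dlx2, SP1 P28 had 17.4 and SP1 P10 23.3 IPM per kb, against 9.20 in Syn1Cre. Between Dlx6 and Dlx5 they had 20.1 and 26.0 against 9.92. In the window from 10 to 15 kb after the start of Dlx1, SP1 P28 had 83.6 ± 25.1 IPM (n = 4), SP1 P10 136 ± 31.7 (n = 3) and Syn1Cre 18.04 ± 6.11 (n = 6). In the flank before Dlx1 the SP1 groups lay on either side of Syn1Cre, with 6.07 IPM per kb in SP1 P28, 10.4 in SP1 P10 and 7.86 in Syn1Cre. Within 1 kb of a gene end, SP1 P28 had 19.7% of its Dlx5-Dlx6 insertions (exact interval 15.9 to 24.1), SP1 P10 20.7% and Syn1Cre 12.2% (10.6 to 14.0). At Dlx1-Dlx2 the same shares were 14.4%, 10.2% and 11.3%. These stretches were chosen for description after their values were seen, and their differences were not tested.

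The Rbp4Cre_TRAP group asks what ribosome-bound RNA of projection neurons carries at genes of the interneuron lineage. All 4 members were called lower than in Syn1Cre, where 0.543% of 16939 loci were called in either direction. The genes were chosen for high counts in these same Syn1Cre animals, so this is a description and not independent support. Dlx1 was -2.23 on the log2 scale (SE 0.238, adjusted p 1.08e-06) and Dlx2 -2.71 (SE 0.281, adjusted p 9.21e-07). At Dlx5-Dlx6, where the group had 0, 0, 1 and 1 insertions, the pooled ratio to Syn1Cre was 0.0447 (exact interval 0.00541 to 0.162), with edgeR adjusted p of 2.34e-06 for Dlx5 and 9.21e-07 for Dlx6. The ratio at Dlx1-Dlx2 was 0.248 (0.157 to 0.373). At these depths the animals at 0 could hold up to 52.6 and 59.6 IPM.

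Of the 23 Dlx1-Dlx2 insertions of this group, 22 (95.7%) were in the 50 kb before Dlx1, 3 of them within 5 kb of it. None lay in either gene body or between the genes, and 1 lay after Dlx2. The pooled Dlx1-Dlx2 level equalled that of GFAPCre, at a ratio of 1.00 (0.633 to 1.52), and the Dlx5-Dlx6 level was below it, at 0.195 (0.0235 to 0.709). Whole forebrain was used here and cortex in Syn1Cre, and tissue and method cannot be told apart from the cell type. The 9 excitatory marker loci summed to 4017 to 4916 IPM against 2753 to 3402 in Syn1Cre, and the interneuron markers to 81.9 to 275, with Lhx6 at 0 in all 4 tables. A 0 allows up to 52.6 to 123 IPM here, above the 39.4 of Lhx6 in Syn1Cre, so it shows no absence. Of the 9 excitatory markers 2 were called higher and 1 lower, and none of the 7 interneuron markers was called.

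C57bl6J mice, which need no Cre, were compared with both Cre lines. Against GFAPCre all 4 members were called higher, where 16.1% of 17914 loci were called. The genes were chosen for low counts in these same GFAPCre animals, so this too is a description and not independent support. Dlx1 was 1.63 (SE 0.113, adjusted p 1.18e-09), Dlx2 1.86 (adjusted p 2.82e-10), Dlx5 2.12 (SE 0.150, adjusted p 1.18e-09) and Dlx6 2.11 (adjusted p 1.74e-09) on the log2 scale. Both C57bl6J animals lay above all 6 GFAPCre animals at each pair. All 7 interneuron marker loci were called higher and 7 of 9 astrocyte marker loci lower in the same comparison. Against Syn1Cre no member was called, where 0.746% of 18353 loci were. Dlx1 was -0.35 (SE 0.143, adjusted p 0.262), Dlx2 -0.37 (SE 0.146, adjusted p 0.243), Dlx5 0.05 (SE 0.130, adjusted p 0.884) and Dlx6 0.06 (SE 0.128, adjusted p 0.867). With 2 C57bl6J animals this does not show that the groups are alike: the 6 Syn1Cre animals lay above both at Dlx1-Dlx2 and on either side of them at Dlx5-Dlx6. Against Syn1Cre animals 1 to 3 alone, the edgeR value at Dlx1 was -0.28 with adjusted p 0.0233 and at Dlx2 -0.29 with adjusted p 0.0209. That fit changes the number of animals as well as the layout. The signs at Dlx5 and Dlx6 turned to -0.05 and -0.04 with total insertions.

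GFAPCre and GFAPCreNeg had no called difference at any member, where 7.34% of 15884 loci were called. Dlx1 was 0.03 (SE 0.113, adjusted p 0.960) and Dlx2 -0.07 (SE 0.120, adjusted p 0.764), with Dlx2 at 0.0050 under total insertions. Dlx5 was -0.54 (SE 0.185, adjusted p 0.0719) and Dlx6 -0.55 (SE 0.187, adjusted p 0.0676). Dlx5 passed the threshold without GFAPCre animal 5 (adjusted p 0.0482) or 6 (adjusted p 0.0339). The core share at Dlx1-Dlx2 was 34.1 ± 4.86% in GFAPCre and 40.1 ± 4.23% in GFAPCreNeg (n = 6 each), with exact permutation p = 0.0390 and adjusted p 0.0649, and at Dlx5-Dlx6 it was 48.3 and 52.6% (exact permutation p = 0.385). Without GFAPCre animal 4 the former difference was -7.69 points with adjusted p 0.0159. In this comparison 4 of 9 astrocyte marker loci were called lower in GFAPCre and none higher, against the label of the group. Among the animals that shared library pools across the 2 groups, with the pool as a block, Dlx5 was -0.28 (adjusted p 0.532), Dlx1 0.04 and Dlx2 0.03.

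Frontflip_GFAPCre did not differ by a call from GFAPCre at any member, where 2.08% of 16682 loci were called. Dlx1 was -0.23 (SE 0.234, adjusted p 0.734), Dlx2 -0.15 (SE 0.249, adjusted p 0.869), Dlx5 -1.25 (SE 0.484, adjusted p 0.206) and Dlx6 -1.08 (SE 0.480, adjusted p 0.301). The counts were 35, 9 and 14 at Dlx1-Dlx2 and 9, 5 and 0 at Dlx5-Dlx6. The core share was 30.3 ± 9.01% at Dlx1-Dlx2 (n = 3, exact permutation p = 0.405). At Dlx5-Dlx6 the mean was 67.8% over the 2 animals with insertions (exact permutation p = 0.0714), since animal 3 had none and was dropped.

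BrokenHeart, read from DNA, was lower than C57bl6J at all 4 members, where 32.6% of 4562 loci were called. Dlx1 was -2.20 (SE 0.284, adjusted p 1.23e-12) and Dlx2 -2.26 (SE 0.294, adjusted p 1.80e-12) on the log2 scale. Dlx5 was -1.34 (SE 0.291, adjusted p 7.00e-05) and Dlx6 -1.32 (SE 0.287, adjusted p 6.79e-05). Without BrokenHeart animal 1 Dlx5 was -1.15 with adjusted p 0.0501. The 3 animals had 10, 8 and 4 insertions at Dlx1-Dlx2 and 4, 13 and 6 at Dlx5-Dlx6. Core shares were 19.2% and 78.6% from these few insertions, and the molecule read cannot be told apart from the group. In the same comparison all 7 tested excitatory marker loci were called lower (median -1.48), and 3 of 6 tested astrocyte marker loci were called higher and none lower (median 0.87). Of 2 tested interneuron marker loci, 1 was called higher and 1 lower. The interneuron markers summed to 423 to 509 IPM in BrokenHeart and 494 to 517 in C57bl6J, so their sum did not fall as the Dlx levels did. The part of any list in the Dlx values was not tested.

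**Figure D4:**
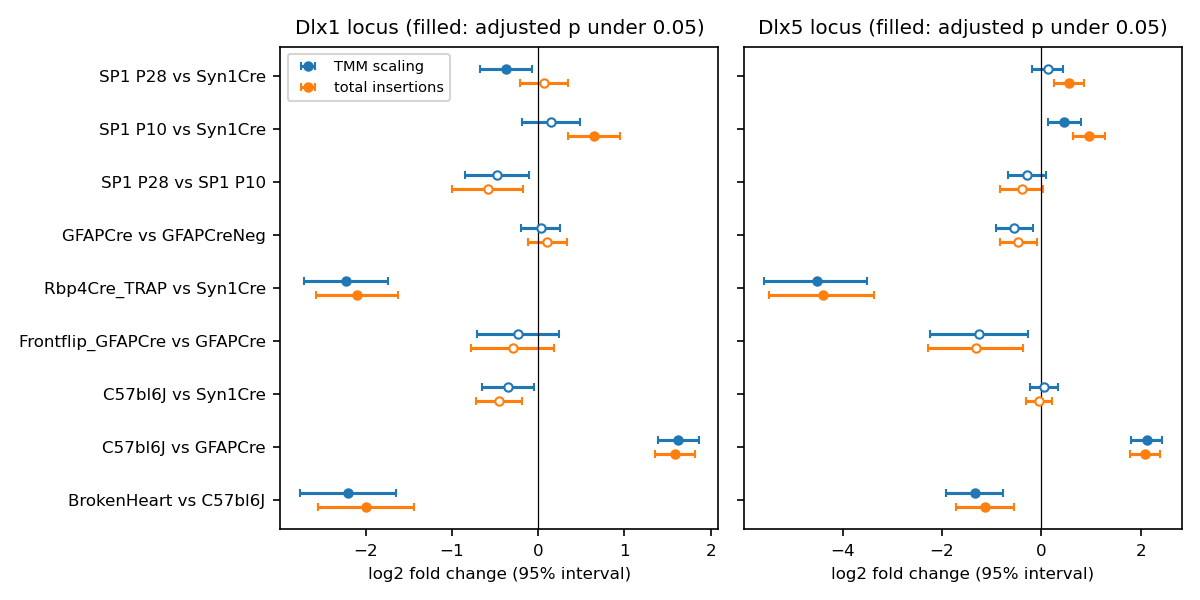
Log2 fold change with 95% interval at the Dlx1 locus and the Dlx5 locus in each of the 9 tested comparisons (edgeR), with TMM scaling in blue and total insertions in orange, filled where the adjusted p is below 0.05. The x axes of the panels differ in scale. The SP1 P28 value at Dlx1 (-0.37) turns to 0.07 when tables are scaled by total insertions, and that of C57bl6J against Syn1Cre at Dlx5 turns from 0.05 to -0.05.

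N2a cells differed from C57bl6J cortex most at Dlx5-Dlx6. The pooled ratio was 0.225 (exact interval 0.175 to 0.285) at Dlx1-Dlx2 and 0.0196 (0.00533 to 0.0504) at Dlx5-Dlx6, from 1 table with no spread between cultures. The N2a core share at Dlx1-Dlx2 was 54.8%, and 11 of the 73 insertions lay in the Dlx2 body (4.07 IPM per kb, against 3.27 in Syn1Cre).

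The third pair of the family, Dlx3 and Dlx4, lies on chromosome 11 (Dlx3 at chr11:95120117-95125296) and acts mainly in skin, placenta and tooth. It gave a contrast to the forebrain pairs. It had 16.7 ± 6.29 IPM in Syn1Cre, 11.2 in C57bl6J and at most 7.59 in the other brain groups without SP1. Rbp4Cre_TRAP had 0, but its animals could hold up to 52.6 to 123 IPM, so this shows no difference from Syn1Cre. SP1 P10 had 66.4 ± 12.8 and SP1 P28 56.9 ± 24.6, and N2a had 88.0. Dlx3 was called higher than in Syn1Cre in SP1 P28 (log2 1.27, SE 0.300, adjusted p 0.00112) and SP1 P10 (1.61, SE 0.440, adjusted p 0.0051), where 54.4% and 43% of all loci were called. With each position counted once both calls were lost, at 0.34 (adjusted p 0.432) and 1.07 (adjusted p 0.101). The overlapping Dlx4 locus had 7.41 ± 7.78 IPM in SP1 P28, 11.5 ± 19.9 in SP1 P10 and 9.55 ± 3.42 in Syn1Cre. The higher SP1 level at Dlx3 thus lay in the far flank before Dlx3, more than 50 kb before Dlx4, and not at either gene. With 10 kb flanks Dlx3 was not tested in either comparison. N2a thus held about as many insertions at Dlx3-Dlx4 as at Dlx1-Dlx2, which no brain group did.

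The programme in which Dlx genes work was followed through 29 further genes, among them the upstream factor Gsx2, the downstream factors Lhx6, Sp8 and Sp9, and the GABA genes Gad1, Gad2 and Slc32a1. Among the tested comparisons the most calls were in C57bl6J against GFAPCre, where 20 of 28 tested were called higher and 1 lower (16.1% of all loci were called), with a median log2 difference of 0.95 against -0.00 for all loci. The list was drawn up with earlier results of these data known, and GFAPCre was an arm of a contrast that chose the members. Counts for this list, here and below, are thus descriptions and not independent support. Maf (2.00, SE 0.174, adjusted p 2.99e-08) is an interneuron transcription factor, Sst (2.45, SE 0.242, adjusted p 3.20e-07) encodes somatostatin, and Gad2 (2.04, SE 0.160, adjusted p 5.17e-09) makes GABA. Against Syn1Cre, C57bl6J was called higher at 3 of 28 and lower at none, where 0.746% of all loci were called. These were Isl1 (2.11), Ebf1 (1.70) and Pbx3 (0.93), transcription factors of striatal neurons among other cells. Pbx3 lost its call with at least 2 reads (0.81, adjusted p 0.115). It was 1.06 without C57bl6J animal 1 and 0.79 without animal 2, fits that leave 1 animal in that group.

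In Rbp4Cre_TRAP against Syn1Cre, 4 of 26 were called lower and none higher, where 0.543% of all loci were called. The list median was -1.30 against -0.16 for all loci. The list was drawn up with earlier results of these data known, so this is a description and not independent support. The 4 were Sp9 (-3.42, SE 0.703, adjusted p 0.0143), Maf (-3.04), Sox6 (-2.59) and the neuregulin receptor gene Erbb4 (-2.67, SE 0.280, adjusted p 9.21e-07). Sp9 lost its call with at least 2 reads (adjusted p 0.0541) and without Rbp4Cre_TRAP animal 1, 2 or 4 (adjusted p 0.127, 0.129 and 0.0818). Maf lost it without any 1 of the 4 animals (adjusted p 0.0589 to 0.143). Erbb4 went from 575 ± 81.2 IPM in Syn1Cre to 99.7 ± 33.5.

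In SP1 P28 against Syn1Cre, 2 of 28 were called higher and 10 lower under TMM, and 7 higher and 5 lower with total insertions, so the direction of the list depends on the scaling. The 12 calls of 28 compare with 54.4% of all loci. Maf (-1.42), Erbb4 (-1.39), Satb1 (-1.26) and Npy (-1.09) were lower under TMM, and Npy lost its call with total insertions. In SP1 P10 the counts were 6 and 7 of 27 (10 and 2 with total insertions), near the 43% of all loci called. Lhx6 (1.42), Gad1 (1.38) and Slc32a1, the vesicular GABA transporter gene (1.31), were higher and the semaphorin receptor gene Nrp2 (-1.37) was lower. At Lhx6, SP1 P10 had 150 ± 45.1 IPM, SP1 P28 57.4 ± 12.7 and Syn1Cre 39.4 ± 3.46. Between the SP1 ages, 1 was called higher and 2 lower of 17 (0 and 6 with total insertions), with Lhx6 at -1.21, Erbb4 at -0.59 and Nrp2 at 0.96, where 7.03% of all loci were called. None of these calls was firm. Lhx6 lost its call without SP1 P10 animal 1 (adjusted p 0.0582) or 3 (adjusted p 0.230). Erbb4 lost it without any SP1 P10 animal in turn or SP1 P28 animal 1, 2 or 3 (adjusted p 0.0597 to 0.168) and with DESeq2 (adjusted p 0.0758), and Nrp2 with total insertions (adjusted p 0.0781).

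GFAPCre against GFAPCreNeg had 2 of 20 called lower, Sox6 (-0.68) and Tshz1 (-0.40), where 7.34% of all loci were called. Sox6 lost its call in shared pools (adjusted p 0.0974). Tshz1 lost it there (adjusted p 0.395), with total insertions (adjusted p 0.0815), and without GFAPCre animal 1, 2 or 6 or GFAPCreNeg animal 2, 3, 4 or 6 (adjusted p 0.0761 to 0.129). Frontflip_GFAPCre had none of 22 called. BrokenHeart had 1 called higher and 6 lower of 13 (2 and 5 with total insertions), with a median of -0.73 against 0.01, where 32.6% of all loci were called. Meis2 (-1.61), Erbb4 (-1.53) and Pbx3 (-1.35) were lower. Gad1 was higher (1.25), a call lost without BrokenHeart animal 1 or 3 or without either C57bl6J animal (adjusted p 0.0522 to 0.134).

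The loci most like the Dlx pairs over 10 animal groups were found by Pearson correlation of log2 group means with the sum of both pairs, among 15988 loci. Slc32a1, the vesicular GABA transporter gene at chr2:158607260-158615747, ranked first (r = 0.960), at 51.8 IPM in Syn1Cre, 21.8 in GFAPCre and 10.6 in Rbp4Cre_TRAP. Znrf1 (r = 0.955), Cir1 (0.944, whose locus overlaps that of Sp9), Usp9x (0.943) and Shisa6 (0.942) followed. The correlation compares the pattern over groups and not the size of change. In Syn1Cre and GFAPCre, Znrf1 had 168 and 130 IPM, Cir1 131 and 62.4, Usp9x 93.9 and 84.0, and Shisa6 141 and 95.8. These changes were smaller than those at the Dlx pairs. The groups share depth and construct within each series of animals, so these are descriptions.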

How the data were processed

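The deposited tables list insertions, 1 line each, with read counts per insertion. The unit used was the count of lines, made by the authors from reads aligned to mm10 with Novoalign and Bowtie2, per the submitters' processing notes; versions and filters are not given in the sources used here. The read counts were used only for an alternative that keeps insertions with at least 2 reads. Of the 47 tables, 46 are single animals, which are the replicates, so p-values measure the spread between animals.

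Insertions were counted per protein-coding locus (RefSeq body with 50 kb on each side). Comparisons used edgeR 4.0.16 in R 4.3.3 (quasi-likelihood, TMM, library size set to all insertions of the table, filterByExpr), with Benjamini-Hochberg adjustment over all loci tested and a threshold of 0.05. The SE is the coefficient over the square root of F. DESeq2 1.42.0 was an alternative. Core shares were compared by exact two-sided permutation over animals (scipy 1.17.1), adjusted over 10 tests. Intervals are exact at 95%, and a count of 0 was given the upper limit that 3 counts allow. The scripts were tested on simulated data.

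The members, the 29-gene list and the marker lists were chosen with earlier results of these data known. Named were the members, Dlx3 and Dlx4, from the list up to 4 called genes per comparison by size of change (some listed genes are not reported here by name), the 5 loci most alike (at least 20 IPM on average, at least 1 Mb from each other and from the Dlx genes), and the 3 most used Syn1Cre sites per pair. Alternatives were total insertions in place of TMM, no low-count filter, 10 kb flanks, distinct positions, at least 2 reads, cores of 2 or 10 kb, DESeq2, batches and each animal left out.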

Additional observations from a re-analysis of the deposited data

Results flagged for a closer look

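Outliers were sought in 23 sets of values, each from 1 group of 4 to 6 animals at 1 pair, as IPM or as core share. In 2 of the 23 sets, 1 animal stood apart from the rest of its group. Chance alone gives such a gap in some sets when many are examined. At Dlx1-Dlx2, SP1 P28 animal 4 had 481 IPM, below the other animals of the group (607 to 633). It is also the animal without which the lower call at Dlx1 against Syn1Cre was lost. At Dlx5-Dlx6, GFAPCreNeg animal 4 had 133 IPM, above the other 5 animals (67.1 to 83.8). The cause of either was not tested.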

How the results depend on the processing

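Across alternatives other than leaving out an animal, 118 of 134 values at Dlx1 and Dlx5 kept their direction and their side of the threshold. So did 34 of 40 core shares and 19 of 24 descriptive levels. With an animal left out, 148 of 156 values at Dlx1 and Dlx5 and 86 of 94 core shares did. Dlx2 and Dlx6 are not in these counts. With an animal left out, Dlx2 in SP1 P28 against Syn1Cre changed in 4 of 10 fits, and Dlx6 in SP1 P10 against Syn1Cre in 2 of 9. The cause of each change below was not tested. SP1 P28 against Syn1Cre at Dlx1 was 0.066 with total insertions, 0.21 with distinct positions, -0.17 with 10 kb flanks, -0.35 with no filter, -0.32 against Syn1Cre animals 1 to 3, and -0.28 with the replicate number as a block. Dlx2 was 0.063 with total insertions, 0.37 with 10 kb flanks and 0.24 with distinct positions, and Dlx5 was 0.57 with total insertions. SP1 P10 against Syn1Cre at Dlx1 was 0.65 with total insertions and 0.74 with distinct positions. GFAPCre against GFAPCreNeg was -0.19 at Dlx1 with 10 kb flanks. Dlx2 was 0.0050 with total insertions, 0.051 with 10 kb flanks and 0.026 in shared pools, and Dlx5 was -0.55 with the replicate block. Frontflip_GFAPCre was 0.034 at Dlx2 with at least 2 reads. C57bl6J against Syn1Cre at Dlx1 was -0.34 with the replicate block and -0.28 against Syn1Cre animals 1 to 3. With total insertions, 10 kb flanks and distinct positions, Dlx5 was -0.050, -0.049 and -0.13, and Dlx6 -0.044, -0.014 and -0.11.

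Core differences with distinct positions were 8.68 points for SP1 P28 at Dlx5-Dlx6, and 8.47 and 5.56 for SP1 P10 at Dlx1-Dlx2 and Dlx5-Dlx6. These calls were lost (adjusted p 0.144, 0.0595 and 0.170). The last was 7.06 with at least 2 reads, also lost (adjusted p 0.0952). GFAPCre against GFAPCreNeg was -9.30 with a 10 kb core at Dlx1-Dlx2, and Frontflip_GFAPCre 1.35 with at least 2 reads. Log2 ratios of levels against GFAPCre were 2.51 with 10 kb flanks and 1.35 with distinct positions at Dlx1-Dlx2 and 1.51 with distinct positions at Dlx5-Dlx6. Against Syn1CreNeg they were 1.37 and 1.35 with distinct positions.

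Leaving out each animal in turn gave -0.42 to -0.26 for SP1 P28 at Dlx1, 0.34 to 0.57 for SP1 P10 at Dlx5, and -1.77 to -1.15 for BrokenHeart at Dlx5. GFAPCre against GFAPCreNeg gave -0.014 to 0.088 at Dlx1, -0.11 to 0.00051 at Dlx2 and -0.65 to -0.34 at Dlx5. Frontflip_GFAPCre gave -0.82 to 0.061 at Dlx1 and -0.70 to 0.17 at Dlx2. Core differences ran from 11.3 to 12.9 and 6.69 to 9.19 points for SP1 P10, from -7.69 to -4.80 for GFAPCre and from -8.74 to 0.15 for Frontflip_GFAPCre at Dlx1-Dlx2.

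Animals with the same number are different mice, and their deviations correlated at only -0.211 to 0.269, so the numbers do not pair them. Counts of called loci moved by more than 1.5 times in places: C57bl6J against Syn1Cre 1 to 2615 (main 137), Rbp4Cre_TRAP 30 to 351 (92), Frontflip_GFAPCre 4 to 671 (347), SP1 P28 against P10 10 to 984 (582), GFAPCre against GFAPCreNeg 101 to 1636 (1166), C57bl6J against GFAPCre 764 to 3649 (2878) and BrokenHeart 481 to 1631 (1486). The 28 list genes picked by size of change had 443 alternative values, of which 387 kept their call, 56 lost it and none changed sign. DESeq2 gave no adjusted p for Frontflip_GFAPCre at Dlx5 and Dlx6, and with 10 kb flanks Dlx2 and Dlx5 were not tested in BrokenHeart. The shallow Rbp4Cre_TRAP, BrokenHeart and Frontflip tables limit what can be seen at Dlx5-Dlx6.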
